A study of Mus musculus with 2 samples.

Results

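Laminins, nidogens, perlecan and integrins are the genes described here: the basement membrane chains whose symbols start with Lama, Lamb or Lamc followed by a digit, Nid1, Nid2, Hspg2, and every gene whose symbol starts with Itga or Itgb. Within these families the members were taken by symbol alone. This gave 43 of the 17809 genes listed for wild-type colon and 40 of the 15972 genes listed for the Pdgfra reporter, in which Lama3, Itgb6 and Itgb1bp2 are not listed. Of the 43 members, 4 carry a matching symbol without being integrin subunits, namely the integrin-binding proteins Itgb1bp1, Itgb1bp2 and Itgb3bp and the integrin beta-like protein Itgbl1.

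The study profiled single cells of the mouse colon in 2 droplet libraries. One came from C57BL/6 wild-type mice and mixed sorted epithelial cells (EpCAM+, CD45-) with an equal number of non-epithelial cells (EpCAM-, CD45-), so the proportion of epithelium was set by the mixing. The other held GFP+ mesenchymal cells of Pdgfra-H2B-eGFP mice, in which the Pdgfra locus drives a nuclear green fluorescent protein, though 113 of its cells were immune-like and 51 were led by epithelial genes such as Epcam and Krt8. Each library pooled 3 female mice of 8 to 12 weeks, no treatment was given, and the chemistry differed (kit version 3 for wild type, version 2 for the reporter). With 1 library per genotype there is no replicate, so no test is possible and each ratio below compares cells within one library.

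Laminins are secreted trimers of an alpha, a beta and a gamma chain that polymerise into the sheet of the basement membrane. Nidogens and the heparan sulfate proteoglycan perlecan (Hspg2) join that sheet to type IV collagen. Integrins are alpha-beta pairs at the cell surface that bind laminin, collagen, fibronectin or other ligands: alpha3, alpha6 and alpha7 bind laminin, alpha1, alpha2, alpha10 and alpha11 bind collagen, and alphav, alpha5 and alpha8 bind ligands with an RGD motif. In the gut the epithelium rests on such a membrane, and a laminin that contains the Lama3 and Lamb3 chains anchors epithelial cells to it together with the alpha6-beta4 integrin.

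Values are mean corrected counts per cell, whole numbers taken, from the narrow range of the cell totals and the study's processing, to have been brought to a similar depth per cell before deposition. A cell summed to 6120 to 16389 corrected counts in wild type (7495 cells) and to 2314 to 4432 in the reporter (4409 cells), so levels are not compared between the libraries. Cells were clustered without the members and named from marker lists with the ending "-like". In wild type the classes were enterocyte-like (618 cells), transit-amplifying-like (765), goblet-like (640), enteroendocrine-like (86), crypt-top fibroblasts (CTFs-like, 816), crypt-bottom fibroblasts 1 and 2 (CBFs1-like, 1137, and CBFs2-like, 508), smooth muscle-like (944), pericyte-like (119), blood endothelial-like (591), lymphatic endothelial-like (43), glia-like (79) and immune-like (40). A further 132 fibroblasts and 602 other cells stayed unnamed. An epithelial cluster of 375 cells led by Krt36, Defb45 and Fut9 matched no list and is called the Krt36 cluster. No class was named crypt base stem-like. A finer clustering (resolution 0.8) gave 485 cells of that name, with Lgr5 among their leading genes, and 226 transit-amplifying-like cells. The transit-amplifying-like class used here can therefore hold stem-like cells. The reporter gave 634 CTFs-like, 2758 CBFs1-like, 853 CBFs2-like and 113 immune-like cells. The summed epithelial markers of the named non-epithelial classes stood at 2.06% (CBFs1-like) to 6.02% (blood endothelial-like) of their epithelial level. In the unnamed fibroblasts, which count among the stromal cells below, they stood at 9.90%. Fibroblast markers in epithelial cells stood at 0.811% of their CBFs-like level. Whether these counts came from free RNA or another source was not tested. Their part in the low values of any class was not tested beyond the alternative given beside the endothelial and glial results.

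In wild type 30 members reached a mean of 0.5 in at least 1 named class, 9 peaked between 0.1 and 0.5, and Itga10, Itgb1bp2, Itgbl1 and Lama1 stayed under 0.1 in every named class. Most stromal laminin, nidogen and perlecan genes were low in all epithelial classes, while a small set of laminin and integrin genes was high there. Epithelial cells as a whole (2484 cells) were set against stromal cells, meaning fibroblasts, smooth muscle-like and pericyte-like cells (3656 cells), over genes with at least 20 corrected counts in both classes together. At least 2-fold higher in epithelium were 10 of 38 members, where 39.1% of all 15534 genes were, and 24 members were at least 2-fold lower, where 19.8% of genes were. The median log2 ratio of the members was -2.59, against 0.56 for all genes.

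**Figure D1:**
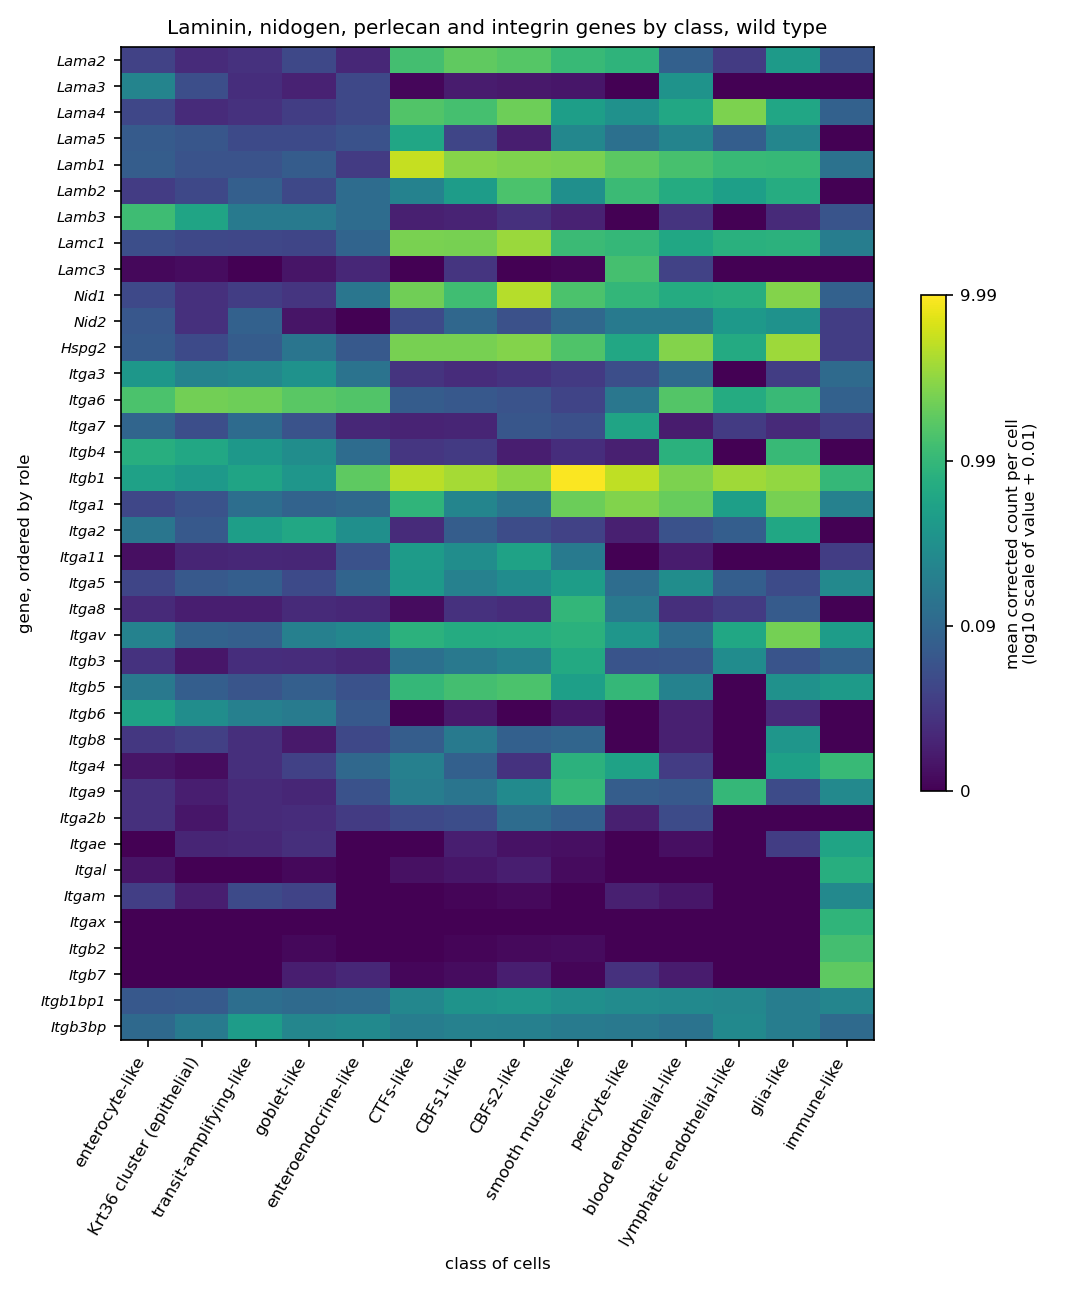
Mean corrected count per cell (colour, log10 scale) of members with a mean of at least 0.1 in some class, in rows, for the wild-type classes, in columns. Lamb3, Itgb6, Itga6 and Itgb4 are bright on the epithelial side and Lama2, Lama4, Lamb1, Lamc1, Nid1 and Hspg2 on the stromal side, while Itgax, Itgb2 and Itgb7 are bright in the immune-like column, where Itgb7 has a mean of 1.80.

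Among the members higher in epithelium were Itgb6, Lamb3, Itgam, Itga6, Itgb4, Itga3, Lama3, Itga2 and Itgae. Lamb3, a beta chain of the epithelial laminin, had a mean of 0.465 in epithelial and 0.00957 in stromal cells, a log2 ratio of 5.60. Itgb6, which pairs with alphav to bind and activate latent TGF-beta, stood at 0.279 against 0.00328, a log2 ratio of 6.41. Itgam, a leukocyte subunit, had only 3 corrected counts in all stromal cells and its epithelial mean was 0.0266. On the other side the largest difference was that of Nid1, at 0.0286 in epithelial and 1.94 in stromal cells, with Lama2 (0.0238 against 1.40), Lamc1 (0.0374 against 2.18), Lamb1 (0.056 against 3.22) and Lama4 (0.0233 against 1.20) close behind. Free fibroblast RNA is not separated from expression at epithelial levels this low, and its part was not tested. Of the 34 members past 2-fold here, 33 stayed past it in all 13 alternative settings, the exception being Itgbl1.

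Within the epithelium Lama3 and Lamb3 did not have a uniform level but were highest in enterocyte-like cells. Lamb3 had a mean of 0.157 in transit-amplifying-like cells, a class of the lower crypt that can include stem-like cells. It was 0.161 in goblet-like cells, 0.549 in the Krt36 cluster and 1.16 in enterocyte-like cells, the absorptive cells of the upper crypt and surface. The means of Lama3 were 0.0144, 0.00937, 0.0427 and 0.217 in the same order of classes. Enteroendocrine-like cells, the hormone-secreting cells, were low for both (0.105 for Lamb3 and 0.0349 for Lama3). Median genes per cell were 2928 for enterocyte-like cells against 3402 for transit-amplifying-like ones. Depth of these classes before the correction is not known.

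The enterocyte-like class held 2 clusters, and the laminin chains differed between them. One of 405 cells was led by Sptssb, Cyp2c55 and Car1 and the other, of 213 cells, by Atp12a, Saa1 and Tgm3. Lama3 had a mean of 0.158 in the Cyp2c55 cluster and 0.329 in the Saa1 cluster, and Lamb3 of 1.01 and 1.45.

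**Figure D2:**
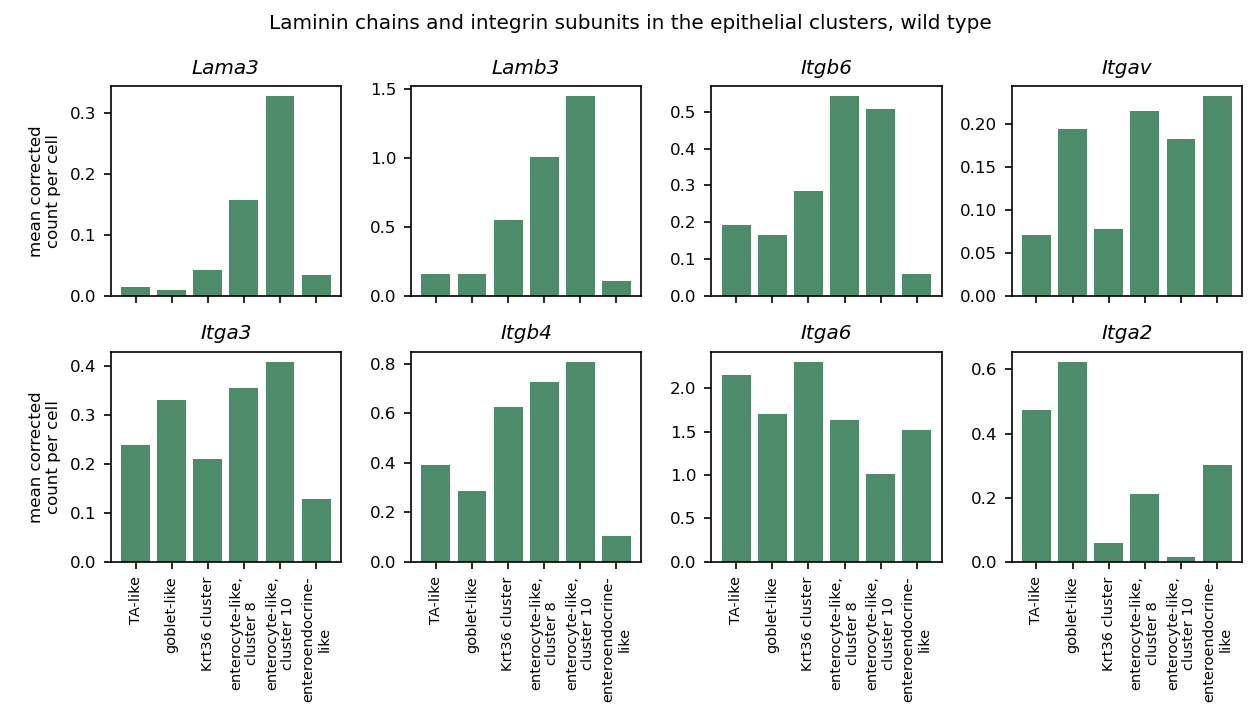
Mean corrected count per cell (vertical axes, each with its own range from 0) of 8 members in the 6 epithelial clusters of wild type (bars). Lama3 and Lamb3 are tallest in the Saa1 cluster of enterocyte-like cells (cluster 10 in the plot, beside cluster 8, the Cyp2c55 cluster), and Itga2 is tallest in goblet-like cells at 0.623.

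Enterocyte-like over transit-amplifying-like cells, 6 of 30 members were at least 2-fold higher (11.4% of all 12646 genes were) and 5 at least 2-fold lower (32.9% of genes). Among the higher members were Lama3 (log2 ratio 3.91), Lamb3 (2.88), Itgb5 (1.59), Itgav (1.53) and Itgb6 (1.46). Enterocyte-like cells had a mean of 0.531 for Itgb6 against 0.193, and of 0.204 for its partner Itgav against 0.0706, and both were seen together in 10.0% of enterocyte-like and 1.31% of transit-amplifying-like cells (0.324% and 0.131% after each cell was thinned to 2000 corrected counts). The lower members were Itgb3bp, a centromere-associated protein, at 0.0955 against 0.439, Itga2 (0.142 against 0.475), Itga1 (0.034 against 0.11), Lamb2 (0.0243 against 0.0719) and Itga5 (0.0324 against 0.0693). The Itga5 and Lamb2 differences fell under 2-fold when cells above 10% mitochondrial counts were left out (log2 ratios of 0.022 and -0.75). That of Itga5 also did so at resolution 0.8, with 15 principal components and with the members kept among the clustering genes.

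Integrin subunits of the epithelium followed separate patterns. Itga6, the alpha subunit of the hemidesmosome integrin, was high in every epithelial class, from 1.42 in enterocyte-like to 2.16 in transit-amplifying-like cells and 2.30 in the Krt36 cluster. Its partner Itgb4 stood at 0.391 in transit-amplifying-like cells, 0.627 in the Krt36 cluster and 0.754 in enterocyte-like cells, and was low in goblet-like (0.284) and enteroendocrine-like cells (0.105). Itga3, another laminin-binding alpha subunit, ranged from 0.128 in enteroendocrine-like to 0.374 in enterocyte-like cells. The collagen-binding Itga2 was highest in 2 classes, at 0.623 for goblet-like cells and 0.475 for transit-amplifying-like cells, against 0.0587 in the Krt36 cluster. Goblet-like over enterocyte-like cells, 5 of 28 members were at least 2-fold higher (27.1% of 12446 genes), Itga2 among them with a log2 ratio of 2.13, and 7 lower (12.2%), including Lama3 and Lamb3. Among the enterocyte-like cells Itga2 was 0.21 in the Cyp2c55 cluster and 0.0141 in the Saa1 cluster. Itgb1, the common beta partner, was at 0.372 to 0.55 in the other epithelial classes and at 1.81 in enteroendocrine-like cells.

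Crypt-top and crypt-bottom fibroblasts differ in their Pdgfra level and in the Wnt and Bmp signals they make, and both libraries hold them. CTFs-like over CBFs-like cells (1645 cells of both CBFs classes in wild type, 3611 in the reporter), 3 of 33 members were at least 2-fold higher in wild type (6.35% of all 13023 genes) and 7 at least 2-fold lower (11.5%). In the reporter 4 of 27 were higher (8.2% of 12484 genes) and 3 lower (8.71%). Both libraries gave the same direction past 2-fold for 5 of the 27 members that could be compared in both, where 9.87% of 11643 genes did: Lama5, Itga1 and Itga4 higher, and Lamb2 and Itga2 lower in CTFs-like cells. The reporter's ratios of Lama5 and Itga4 rested on the clustering and turned with 15 principal components (log2 ratios of -1.57 and -0.11), as given with the Nrg1 cluster. With the clustering used here none of the 27 passed 2-fold in opposite directions.

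**Figure D3:**
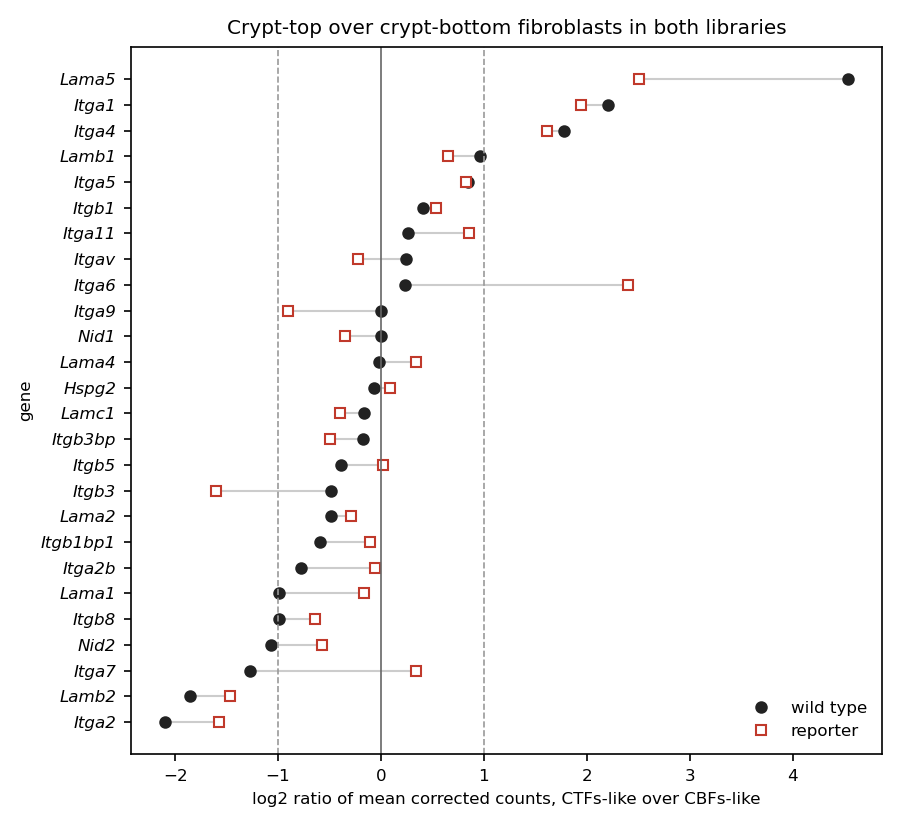
Log2 ratio of mean corrected counts in CTFs-like over CBFs-like cells (horizontal axis) for members compared in both libraries (rows), with filled circles for wild type and open squares for the reporter and dashed lines at 2-fold. Lama5, Itga1 and Itga4 lie right of the upper line in both libraries, and Lamb2 and Itga2 left of the lower one.

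Itga1, the collagen- and laminin-binding alpha1 subunit, had a mean of 0.907 in CTFs-like cells, 0.223 in the CBFs1-like class and 0.136 in the CBFs2-like class of wild type. In the reporter the means were 0.274, 0.0827 and 0.034, and crypt-top exceeded all crypt-bottom cells by a log2 ratio of 2.21 in wild type and 1.95 in the reporter. The ratio stayed past 2-fold in all 13 alternative settings. The reporter held 0 cells above 10% mitochondrial counts, so leaving such cells out could not change its ratio. In wild type Itga1 was higher than in CTFs-like cells in pericyte-like (2.71), glia-like (2.41), smooth muscle-like (2.12) and blood endothelial-like cells (1.98). It was lower in the other named classes. Itga1 (chr13:114953096-115101964, minus strand, GRCm38) contains the gene Pelo on the same strand, and reads from Pelo inside it cannot be told apart from Itga1 without the read positions.

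Lamb2, a beta chain, was the mirror image, at 0.206 in CTFs-like cells, 0.444 in the CBFs1-like class and 1.42 in the CBFs2-like class of wild type and at 0.041, 0.0747 and 0.237 in the reporter. Lamb1, the other broadly used beta chain, was highest in CTFs-like cells, at 5.42 against 2.84 and 2.64 in wild type and 0.847 against 0.554 and 0.492 in the reporter. Its CTFs-like over CBFs-like log2 ratios, 0.96 and 0.65, were under 2-fold. The gamma chain Lamc1 differed little (log2 ratios -0.16 and -0.39), as did Hspg2 (-0.07 and 0.09) and Lama4 (-0.02 and 0.34). Itga2 was low in fibroblasts, at 0.0135 in CTFs-like cells against 0.0578 in CBFs-like cells of wild type.

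Itga4, which binds Vcam1 and fibronectin, had a mean of 0.194 in CTFs-like cells against 0.0565 in CBFs-like cells of wild type, and of 0.0237 and 0.00775 in the reporter. The reporter's values rest on 15 and 28 corrected counts. In both libraries Itga4 was highest in immune-like cells, at 1.05 in wild type and 0.283 in the reporter. Itga6 was past 2-fold in the reporter alone, at 0.0205 against 0.00388, while its log2 ratio in wild type was 0.24 (0.0637 against 0.0541). Itgb3 was also past 2-fold only in the reporter (0.011 against 0.0335), and the difference between the libraries was not tested. The remaining members lower in wild-type CTFs-like cells, Itgbl1, Itga8, Lamc3, Itga7 and Nid2, had CBFs-like means of 0.0134 to 0.0772, and Lamc3, Itga7 and Nid2 fell under 2-fold in at least 1 alternative, while Itgbl1 gave no ratio after thinning.

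Lama5, the alpha chain of laminins found in epithelial and vascular basement membranes, had the largest ratio. Its mean was 0.578 in CTFs-like cells, 0.0325 in the CBFs1-like class and 0.00787 in the CBFs2-like class of wild type, and 0.0505, 0.0109 and 0.00234 in the reporter. The log2 ratio over CBFs-like cells was 4.54 in wild type and 2.51 in the reporter. Within the CTFs-like cells the signal was uneven. A cluster led in the reporter by Ptprr, Il1rl1, Nrg1 and Lpar3 held 109 cells, and the CTFs-like cluster with the highest Nrg1 mean in wild type, which separated at resolution 0.8, held 184. Nrg1 encodes neuregulin 1, an ErbB receptor ligand. These Nrg1 clusters were found without the members, but were set apart after the levels had been seen.

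In wild type the mean of Lama5 was 2.18 in the Nrg1 cluster and 0.112 in the other 632 CTFs-like cells. In the reporter it was 0.284 in the Nrg1 cluster and 0.0019 in the other 525, which held 1 corrected count. Lama2, the alpha chain of muscle and stromal laminins, went the other way, at 0.0815 in the Nrg1 cluster and 1.61 in the other CTFs-like cells of wild type, and at 0.055 and 0.259 in the reporter. The log2 ratios for Lama2 were -4.31 and -2.23. Lama5 and Lama2 were the only members past 2-fold the same way in both libraries among the 16 compared in both, where 6.37% of 8022 genes were.

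The share of cells with a value above 0 also differed between the Nrg1 cluster and the other cells, and the intervals and limits cover counting error only. Lama5 was above 0 in 143 of 184 cells of the wild-type Nrg1 cluster (77.7%, exact binomial 95% interval 71.0% to 83.5%) and in 8.07% of the other CTFs-like cells, against 3.27% of transit-amplifying-like and 0 of 40 immune-like cells, where a limit of 3 cells allows up to 7.5% with a value above 0. Lama2 was above 0 in 5.43% of the Nrg1 cluster and 62.3% of the other CTFs-like cells, against 1.31% of transit-amplifying-like cells, which should lack it. Median genes per cell were 2948 in the Nrg1 cluster, 2271 in the other CTFs-like and 3402 in transit-amplifying-like cells. Thinned to 2000 corrected counts, the shares of the Nrg1 cluster and the other CTFs-like cells were 33.2% and 2.53% for Lama5 and 2.17% and 29.0% for Lama2. Both genes were above 0 in 31 of the 816 CTFs-like cells of wild type, Lama2 alone in 373 and Lama5 alone in 163. Within the wild-type Nrg1 cluster 7 of the 10 cells with Lama2 also had Lama5, beside 143 of all 184, so the values describe a difference between clusters and not between the cells of this one. In the reporter, 20 of 109 cells of the Nrg1 cluster had Lama5 (18.3%, interval 11.6% to 26.9%) against 1 of 525 others, and no CTFs-like cell had both genes. Only 5 cells of this Nrg1 cluster had Lama2, so the lack of cells with both does not show that the genes exclude each other.

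**Figure D4:**
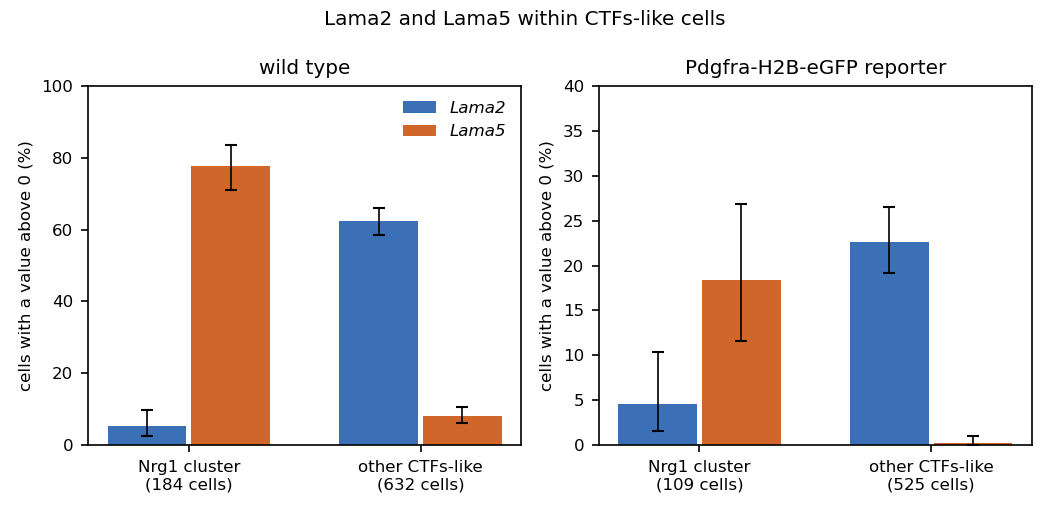
Share of cells with a value above 0 (vertical axis, percent) for Lama2 (blue) and Lama5 (orange) in the Nrg1 cluster and in the other CTFs-like cells, with exact binomial 95% intervals that cover counting error only, for wild type (left, axis to 100) and the reporter (right, axis to 40). Lama5 is the taller bar in the Nrg1 cluster and Lama2 in the other cells in both libraries.

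The CTFs label of the reporter's Nrg1 cluster depended on the clustering. Its cells were named CTFs-like at the resolution of the study, fell among unnamed fibroblasts at resolution 0.8 and with the members kept among the clustering genes, and were named CBFs1-like with 15 principal components. In the reporter the log2 ratio of Lama5 in CTFs-like over CBFs-like cells was -1.57 with 15 principal components, -0.16 with the members kept in and -0.63 without the Nrg1 cluster, and at resolution 0.8 too few corrected counts were left for a ratio. That of Itga4 was -0.11, 0.36 and 0.30, and 0.64 at resolution 0.8. In wild type Lama5 kept a log2 ratio of 2.17 without the Nrg1 cluster.

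The start regions of the alpha chain genes that moved apart are shown because their base composition differs. They were picked among 28 members with a promoter entry, and a link between base composition and level was not tested. The stretches are the 200 bases before the RefSeq start on GRCm38.p6, read 5′ to 3′ on the gene's strand. They lie at chr2:180225860-180226059 (minus strand) for Lama5 and chr10:27616943-27617142 (minus strand) for Lama2, and neither overlaps an annotated exon. The GENCODE span of Lama2 (chr10:26980036-27619758) starts further upstream than the RefSeq start, so this is 1 of its possible start regions. Capitals mark GGGCGG, the GC box, on either strand.
Lama5: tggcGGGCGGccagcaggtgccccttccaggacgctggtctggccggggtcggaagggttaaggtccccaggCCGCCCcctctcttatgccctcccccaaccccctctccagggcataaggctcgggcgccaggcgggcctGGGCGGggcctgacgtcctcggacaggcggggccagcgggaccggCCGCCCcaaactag
Lama2: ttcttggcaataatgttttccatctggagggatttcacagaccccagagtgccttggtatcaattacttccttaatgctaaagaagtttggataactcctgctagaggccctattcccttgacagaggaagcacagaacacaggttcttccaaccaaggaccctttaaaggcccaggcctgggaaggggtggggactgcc
The Lama5 stretch has 74% G or C and 4 GC boxes. The Lama2 stretch has 49% and none. Among all 32851 RefSeq promoters, 31.0% hold a GC box in the same window, and the median G or C share is 53%. The AP-1 motif TGANTCA, the forkhead motif TGTTTAC and the letters TATAAA were searched on both strands as well and are in neither stretch (5.5%, 2.5% and 10.0% of all promoters hold them).

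Other members and their partners also differed between the Nrg1 cluster and the remaining CTFs-like cells. In wild type 9 of 24 members were at least 2-fold higher in the Nrg1 cluster (11.7% of 10765 genes) and 3 lower (5.47%), and in the reporter 2 of 16 were higher (11.3% of 8278 genes) and 2 lower (4.32%). Nid1 was 4.55 against 1.56 in wild type and 0.596 against 0.331 in the reporter. Itga9, a receptor for tenascin and Vcam1, was 0.511 against 0.0775 in wild type. Hspg2 was 1.90 against 2.58 in wild type and 0.275 against 0.583 in the reporter. The partner genes are a list of basement membrane collagens, other matrix receptors, integrin ligands and adaptors. Here 31 of them were compared in wild type and 29 in the reporter. Vcam1, Tnc, Mfge8, Col18a1 and Sdc1 were past 2-fold higher in both libraries and Lims2 lower, where 6.37% of 8022 genes passed the same way. Tenascin C (Tnc) was 14.6 against 3.01 in wild type and 1.84 against 0.52 in the reporter, and the integrin ligand Mfge8 was 10.5 against 3.11 and 2.73 against 0.838.

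Between the crypt-bottom classes, the linker Nid1 differed by over 2-fold in both libraries. Its mean was 4.57 in CBFs2-like, 1.19 in CBFs1-like and 2.23 in CTFs-like cells of wild type and 1.02, 0.311 and 0.377 in the reporter. CBFs2-like over CBFs1-like cells, 5 of 32 members were at least 2-fold higher in wild type (8.47% of 12379 genes) and 6 lower (6.03%), and in the reporter 4 of 25 were higher (5.1% of 12146 genes) and 6 lower (13.2%). In both libraries Nid1 (log2 ratios 1.94 and 1.71), Lamb2 (1.67 and 1.66) and Itga2b (1.34 and 1.17) were higher in CBFs2-like cells, and Itga4, Lama5 and Nid2 lower. These 6 were among 25 members compared in both, where 7.9% of 11312 genes passed 2-fold the same way. The reporter's ratios of Itga4 and Lama5 rest on 2 corrected counts each in CBFs2-like cells, against 26 and 30 in CBFs1-like cells. Both low sums were raised to the lowest sum used for a ratio. In wild type the corrected counts were 9 against 84 for Itga4 and 4 against 37 for Lama5. Nid2, the other nidogen, was 0.0453 in CBFs2-like and 0.0915 in CBFs1-like cells of wild type, opposite to Nid1. Lamc1 (3.54 against 2.44) and Lama4 (2.14 against 1.29) were higher in CBFs2-like cells of wild type by less than 2-fold. The collagen-binding Itga11 was 0.526 against 0.284 in wild type and 0.12 against 0.0533 in the reporter.

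Several integrin subunits had their highest stromal level in smooth muscle-like cells. Itgb1 was 9.57 there, compared with 4.86 for CTFs-like cells and 3.66 for all CBFs-like cells. Itga8, an RGD-binding alpha subunit, was 0.953 against 0.00245 to 0.0167 in the 3 fibroblast classes, and it was seen together with Itgb1 in 52.2% of smooth muscle-like and 1.41% of CBFs1-like cells (16.4% and 0.528% after thinning). Against all 3 fibroblast classes together, 7 of 34 members were at least 2-fold higher (6.47% of 13532 genes) and 8 lower (15.5%). The higher ones were Itga8 (log2 ratio 6.39), Itga4 (3.05), Itga9 (2.49), Itga1 (2.29), Itgb3 (2.13), Itgb1 (1.24) and Itga7 (1.22), all integrin subunits. Among the lower ones were the laminin chains Lama4 (0.475 against 1.54) and Lamc1 (1.11 against 2.68).

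Pericyte-like cells, the mural cells of small vessels, were set apart from smooth muscle-like cells by Lamc3, a gamma chain, and Itga7, a laminin-binding subunit. Lamc3 had a mean of 1.29 in pericyte-like cells and was above 0 in 53.8% of them (21.8% after thinning), while the 944 smooth muscle-like cells held 1 corrected count. Itga7 was 0.555 against 0.0445. Of 29 members 5 were at least 2-fold higher in pericyte-like cells (11.0% of 11083 genes), namely Lamc3, Itga7, Itga6, Lamb2 and Itgb5, and 10 were lower (17.3%), among them Itga9 (0.0672 against 0.986), Itgb3 (0.0504 against 0.657) and Itga8 (0.151 against 0.953). A cluster of 100 cells led by Notch3, Ndufa4l2 and Heyl stayed unnamed and is not part of this comparison. Its best-matching list was the pericyte-like one (mean log2 ratio 3.96, with 9 markers at least 2-fold higher). The comparison thus leaves out many cells with pericyte markers.

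Blood endothelial-like cells carried the laminin receptor subunits seen in epithelium, with Lama3 but little Lamb3. Itga6 had a mean of 1.59 and Itgb4 of 0.804, and both were above 0 in 23.5% of cells (5.41% after thinning), with 37.9% in enterocyte-like and 0.352% in CBFs1-like cells. Against stromal cells 6 of 35 members were at least 2-fold higher (12.0% of 14044 genes) and 16 lower (22.5%). The higher ones were Lama3 (log2 ratio 6.19), Itgb4 (5.41), Itga6 (4.64), Itga3 (2.47), Itga1 (1.10) and Nid2 (1.08). Lama3 was 0.338, above its enterocyte-like mean of 0.217, whereas its laminin partner Lamb3 had a mean of 0.0186. Among the 165 endothelial cells with at most 3 of 10 epithelial genes above 0, the means were 0.303 for Lama3, 1.78 for Itga6 and 1.27 for Itgb4. Epcam fell from 1.41 to 0.194, but it is among these 10 genes, so its fall was set by the selection. Epithelial genes above 0 per cell averaged 6.44 in the Esm1 and 2.28 in the Selp cluster described below. The selection can thus also change the mix of these clusters, and its part in the means was not tested.

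The endothelial cells formed 2 clusters with different members. In the larger (493 cells, led by Esm1 and Kdr) the means were 0.396 for Lama3, 0.619 for Itgb4, 2.22 for Itga1 and 3.12 for Hspg2. In the smaller (98 cells, led by Selp, Lrg1 and Ackr1) they were 0.051 for Lama3, 1.74 for Itgb4, 0.806 for Itga1 and 0.98 for Hspg2. Lymphatic endothelial-like cells were few, and had a mean of 2.56 for Lama4 and 0.977 for Itga9, a subunit needed for lymphatic valves, while Itgb4 was at 0 in all 43 cells, where the same limit of 3 cells allows a share with a value above 0 of up to 6.98%, for counting error only.

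Glia-like cells also carried the laminin receptor pair, at 1.08 for Itga6 and 1.04 for Itgb4. Against stromal cells 7 of 29 members were at least 2-fold higher (13.8% of 11116 genes) and 11 lower (16.7%). Among the higher ones were Itga2 at 0.595, Itgav at 2.38 and Itgb8, a beta partner of alphav, at 0.367, against 0.0369, 0.734 and 0.0993 in stromal cells. Itgav and Itgb8 were seen together in 15.2% of glia-like and 6.77% of CBFs1-like cells (6.33% and 0.528% after thinning). Hspg2 (3.59) and Nid1 (2.78) were also above their stromal means of 2.17 and 1.94, by less than 2-fold. In the 35 glia-like cells with at most 3 epithelial genes above 0, Itga6 was 1.34, Itgb4 0.943 and Itga2 0.743.

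The leukocyte subunits were found in the immune-like cells, which the CD45- sort of the wild-type library should have removed and whose leading genes are immunoglobulins. In these 40 cells the means were 1.80 for Itgb7, 1.25 for Itgb2, 0.90 for Itgax, 0.75 for Itgal, 0.55 for Itgae and 0.25 for Itgam. Outside them Itgax was at 0 in every named class and Itgb2 reached at most 0.00212. The reporter's 113 immune-like cells had means of 0.283 for Itgb7 and 0.133 for Itgb2.

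The partner genes were read beside the members in the fibroblasts. Of 36 partner genes compared in wild type, 8 were at least 2-fold higher in CTFs-like than in CBFs-like cells (6.35% of all 13023 genes) and 7 lower (11.5%). Of 31 in the reporter 5 were higher (8.2% of 12484 genes) and 4 lower (8.71%). Both libraries gave Col4a5, Col4a6, Tnc and Fermt2 higher, and Col15a1, Edil3 and Vcam1 lower, where 9.87% of 11643 genes passed 2-fold the same way. Col4a5, a type IV collagen chain, was 3.63 against 0.397 in wild type and 0.536 against 0.0889 in the reporter, and Col4a6 followed it (1.23 against 0.119 and 0.118 against 0.0172). The common type IV chains Col4a1 (6.40 against 6.10) and Col4a2 (3.47 against 3.09) hardly differed in wild type. Edil3, an RGD ligand of alphav integrins, was 0.00735 against 1.20, and Col15a1, a collagen of the zone next to the basement membrane, 0.353 against 4.17. The log2 ratios of Tnc were 1.36 in wild type and 1.32 in the reporter, and those of Vcam1 were -3.23 and -1.99. Mfge8 (0.79 and 0.77) and the talin and vinculin adaptors Tln2 (1.14 and 0.85) and Vcl (1.48 and 0.77) had the same sign in both libraries without passing 2-fold in both. Fermt2, the kindlin that activates beta1 integrins, was 2.88 against 1.26, and its epithelial relative Fermt1 was 0.993 in epithelial and 0.0153 in stromal cells.

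Further values complete the account of the members. Itgb5, an alphav partner, was between 0.987 and 1.39 in the fibroblast classes and the pericyte-like cells and at most 0.154 in epithelium. Itga5, the fibronectin receptor subunit, was highest in smooth muscle-like (0.457) and CTFs-like cells (0.398). Itgb1bp1 ranged from 0.0566 in enterocyte-like to 0.362 in CBFs2-like cells. Itga10 peaked at 0.084 in pericyte-like cells, Lama1 at 0.0354 and Itgbl1 at 0.0394 in CBFs2-like cells, and Itgb1bp2 at 0.00261 in transit-amplifying-like cells. In the reporter 5 members reached a mean of 0.5, 13 peaked between 0.1 and 0.5, and 22 stayed under 0.1.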

How the data were processed

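The 2 libraries were made by the authors with Cell Ranger on mm10 and with Seurat 3.1 in R 3.6.2, in which SCTransform brought the counts of each cell to a common depth. The deposited whole numbers were taken to be such corrected counts, which is inferred and not stated: cell totals lie in a narrow range and the other file holds their log. These values, as deposited by the authors, are treated as a score and not as molecule counts, so no count model was used; the second deposited file of each library equals the natural log of 1 plus that value in every entry. The study gives a mean transcript count per cell for wild type, without saying whether it precedes the correction. Depth before the correction is not given for single cells or classes in the sources used here. The wild-type table held 3043 cells with more than 10% mitochondrial counts, that of the reporter held 0, and 1 barcode occurred in both. Wild-type cells number 7495 here, more than the study states after its filtering, and the reason was not found.

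Cells were clustered with Seurat 5.3.0 in R 4.3.3 (3000 variable features less the members and partner genes, 30 principal components, resolution 0.45 for wild type and 0.3 for the reporter). The rule that turns the marker lists into names was set after the clusters had been seen. The gene families, the partner list and the marker lists were chosen with earlier results of these data known. A ratio is that of class means over genes with at least 20 corrected counts in both classes together, with sums under 3 set to 3, and a gene whose direction the floor would decide was left out. A member was called at 2-fold. Apart from 1 member that is not reported here, every member is accounted for, and values are given for members with a mean of at least 0.5 in a named class. The 10 partner genes with the largest ratio of the same sign in both libraries are named. With 1 library per genotype and no map from cells to mice there is no test. Shares have exact (Clopper-Pearson) 95% intervals, and where no cell has a value above 0 a limit of 3 cells of the total is given instead. Thinning drew 2000 corrected counts from each cell. Scrublet in scanpy 1.11.5, at an expected rate of 8%, marked 115 wild-type cells (1.53%), which were kept except in an alternative, and 5 reporter cells (0.113%), so doublets were not addressed there. The ratio step recovered 200 of 200 changed genes in each library in simulated data. That checks the calculation alone and bears on neither the clustering nor the spread between mice. Promoter entries of RefSeq matched 28 of the 43 members.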

Additional observations from a re-analysis of the deposited data

How the results depend on the processing

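A total of 10 member counts were recomputed under 13 other settings, 4 of them chosen after seeing the data. They are the count of members reaching a mean of 0.5 and those of the following comparisons. These are CTFs-like over CBFs-like, epithelial over stromal and enterocyte-like over transit-amplifying-like cells. The counts of the other comparisons were not part of this check. Of 129 recomputed counts 109 stayed within 1.5 times the reported ones, and 20 moved. Some of the 109 could not move. The reporter held 0 cells above 10% mitochondrial counts. Leaving out the Nrg1 cluster or non-epithelial cells with over 3 epithelial genes changes no enterocyte-like or transit-amplifying-like cell. In the reporter, members higher in CTFs-like than CBFs-like cells fell from 4 to 2 at resolution 0.8, with 15 principal components, with the members kept among the clustering genes and without the Nrg1 cluster. Those lower went from 3 to 5, 8, 5 and 6 in these settings and to 5 after thinning. The count shared by both libraries fell from 5 to 3 at resolution 0.8 and with the members kept in. In wild type, members higher in CTFs-like cells went from 3 to 5 without cells above 10% mitochondrial counts and without non-epithelial cells holding more than 3 epithelial genes. Those lower went from 7 to 4 without cells above 10% mitochondrial counts, 2 after thinning and 11 without the Nrg1 cluster. Enterocyte-like over transit-amplifying-like cells, the higher count went from 6 to 10 without doublets, and the lower from 5 to 3 without cells above 10% mitochondrial counts and to 8 with no filter on low values. Members reaching a mean of 0.5 fell from 30 to 7 after thinning, which lowers every level by construction. Reversed log2 ratios were those of Lama5 in the reporter (-1.57 with 15 principal components, -0.16 with the members kept in, -0.63 without the Nrg1 cluster), of Itga4 in the reporter (-0.11 with 15 principal components) and of Itga5 in enterocyte-like over transit-amplifying-like cells (0.022 without cells above 10% mitochondrial counts). Other than for thinning, the cause was not tested. Sums per 10000 of the class total gave no value for the levels, being on another scale. No paired analysis was possible because each genotype has 1 library, and for the same reason no replicate could be left out. In the reporter 22 of 40 members stayed under a mean of 0.1, and the part of depth in this was not tested.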
